A study of Mus musculus with 12 samples.

Results

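The genes that respond differently to lipopolysaccharide (LPS) when macrophages lack Dicer1 were sought with the interaction of genotype and LPS. For each gene this is the LPS response of Dicer KO minus the LPS response of control, each taken as LPS minus vehicle on the log2 scale. All 12 of the 12 libraries of the series entered it, 3 in each of 4 groups, and 13837 of the 46078 gene identifiers had enough counts to be tested. The cells were macrophages grown for 7 days from bone marrow of male C57BL/6 mice in medium conditioned by L929 cells, which release a macrophage growth factor. Sample titles give the controls as LysMcre/+;Dicer+/+;ApoE-/- and the Dicer KO as LysMcre/+;Dicerfl/fl;ApoE-/-, so every group lacks ApoE. Cre sits in the Lyz2 (LysM) locus and is active in myeloid cells. A genotype field calls the controls wildtype, and the names of their files mark LysM as wildtype. All cells had diluted ethanol overnight and then D-PBS (vehicle) or LPS, given in the labels as 100 ng/ul, for 6 h. The labels do not say whether replicates were separate mice, so the p-values rest on a spread between libraries that may be technical.

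Dicer cuts hairpin precursors into mature microRNAs, which lower the level and translation of messenger RNAs that carry matching sites. LPS is sensed by TLR4 and its partners CD14 and MD-2. A branch of the pathway acts through MyD88 and NF-kappaB on cytokine and feedback genes, and another acts through TRIF and IRF3 on interferon beta, which then induces a broad antiviral programme through STAT2 and IRF9, among other factors. Macrophages also change their lipid metabolism on activation. A positive interaction means a larger rise or a smaller fall in Dicer KO, and a negative interaction means the reverse. The same interaction can come from a level that already differs before LPS (the resting level) or from a level that differs after LPS.

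Assigned counts were 16172600 to 18886948 per library. Replicate 3 of control vehicle and replicate 2 of Dicer KO vehicle each stood apart, with a chi-square per degree of freedom over genes of 8.42 to 14.3 against their group mates and 1.32 to 5.10 for all other pairs. Some results that rest on them are also given without them. Dicer1 was measured at 42.6, 45.3 and 43.1 CPM in control vehicle, 47.0, 48.6 and 52.5 in control LPS, 20.1, 19.7 and 19.4 in Dicer KO vehicle and 15.9, 14.3 and 16.3 in Dicer KO LPS, so reads from the gene remained in the Dicer KO. Lyz2 averaged 5714 CPM in the control vehicle libraries and 14.1 in those of Dicer KO (n = 3 each), so the genotypes differed in Lyz2 as well as in Dicer1, and the part of each cannot be told apart. Apoe averaged 17.9 CPM in the former and 5.61 in the latter. All 12 macrophage markers had counts, at 7868 to 8906 CPM summed in Dicer KO vehicle and 11955 to 15577 in the other groups. Lyz2 is 1 of the 12, and its mean of 5714 CPM was a large part of the control vehicle sums of 13457 to 14665. The sums therefore do not compare macrophage content between genotypes. Of other cell types, the 11 neutrophil markers summed to 133 to 220.4 CPM. The 10 dendritic cell markers summed to 17.6 to 22.5 in control and 62.1 to 65.4 in Dicer KO, and the 8 B lymphocyte markers to 39.9 to 107 in vehicle and 7.38 to 11.8 in LPS. Itgax alone reached 61.1 CPM and Ighm alone 101 CPM, so a single gene held most of the highest sums of these lists. The 12 T and NK lymphocyte markers were at 7.93 to 41.4, the 9 mast cell and basophil markers at 0.585 to 165 and the 9 stromal markers at 1.39 to 38.1, each highest in Dicer KO LPS, where a single gene (Lck, Hdc or Pdgfrb) held most of the sum. The 8 erythroid markers stayed at or below 0.933, and the part of any of these in the results was not tested. Ncr1, Fcer1a, Tpsb2, Mcpt4, Lum, Hbb-bs, Hba-a1 and Hba-a2 were at 0 in all 12 libraries. In such bulk samples fewer cells of a type and less RNA per cell cannot be told apart.

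The LPS response differed between genotypes for 4669 of the 13837 genes, of which 2067 (14.9% of those tested) had a higher and 2602 (18.8%) a lower response in Dicer KO, by edgeR's quasi-likelihood test at a Benjamini-Hochberg adjusted p under 0.05. The median size of these interactions was 0.57 on the log2 scale, and 939 were at least 2-fold (362 higher, 577 lower). Most of the affected genes responded to LPS in both genotypes and differed in how far they went. Of the 4669, 1069 rose in both and more in Dicer KO, 645 rose in both and more in control, 1060 fell in both and more in Dicer KO, and 372 fell in both and more in control. Opposite responses were less common, with 144 genes that rose in control and fell in Dicer KO and 107 that did the reverse. For reference, LPS raised 38.0% and lowered 41.1% of the tested genes in control, and raised 37.4% and lowered 42.7% in Dicer KO. Values are relative to the bulk of genes, whose median interaction was -0.04, since scaling by total counts in place of the trimmed mean moved this median to -0.27 and the calls to 997 higher and 5136 lower. With the size factors of DESeq2 in the same fit, the calls were 2434 higher and 2220 lower. Which direction held more calls therefore depended on the scaling.

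More of these genes differed between the genotypes after LPS than at rest. Genes were placed by whether the genotypes differed in vehicle (25.0% of all tested genes higher and 21.2% lower in Dicer KO) and in LPS (28.8% higher and 27.0% lower). Of the 4669 genes, 1968 (42.2%) differed between genotypes in LPS and not detectably in vehicle, 846 of them with a higher and 1122 with a lower response in Dicer KO. A further 759 (16.3%) differed in vehicle and not detectably in LPS, while 1297 (27.8%) differed in both in the same direction and 546 (11.7%) in both in opposite directions. Of the 1297, Dicer KO was the higher genotype for 866, by more in vehicle for 259 and by more in LPS for 607, and the lower for 431, by more in vehicle for 35 and by more in LPS for 396. The remaining 99 (2.12%) passed neither comparison. When the size of the differences was used instead of the calls, the genotype difference was at least 2 times larger in LPS for 2719 genes and at least 2 times larger in vehicle for 818. These comparisons share libraries with the interaction, so the classes describe where it came from and are not independent of it. The number that differed in both in opposite directions was 712 without control vehicle replicate 3, and 363 without control vehicle replicate 2.

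**Figure D1:**
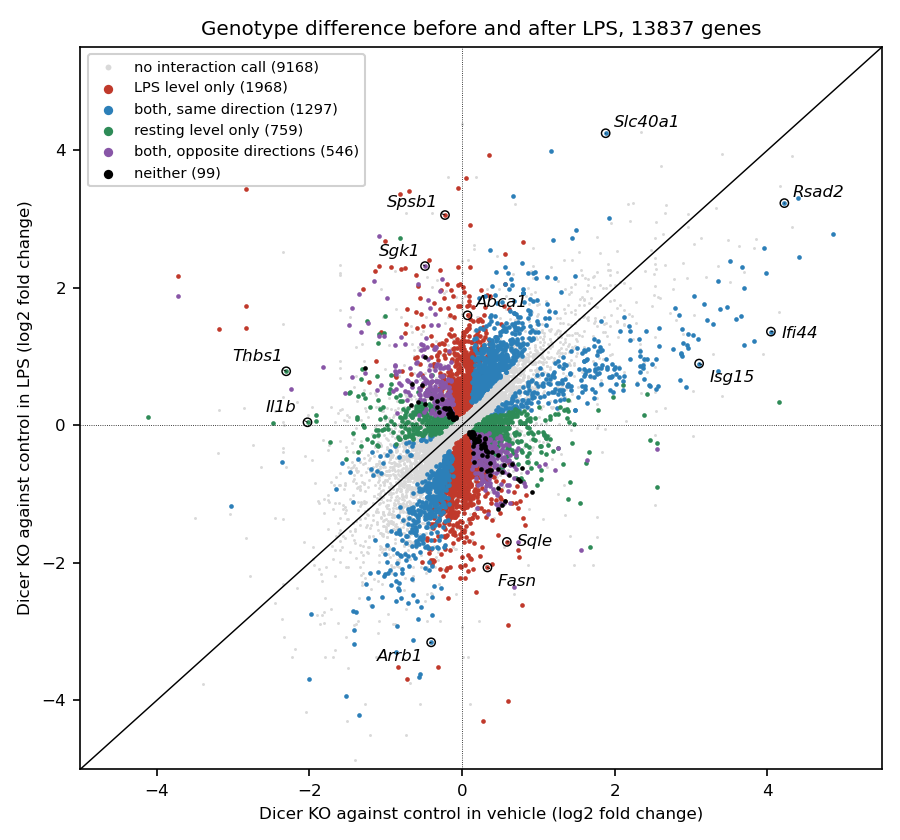
Log2 fold change of Dicer KO over control in vehicle (x axis) against that in LPS (y axis) for each tested gene, coloured by level class. The vertical distance from the diagonal is the interaction, so Spsb1 and Sgk1 sit above it and Isg15, Fasn and Arrb1 below it, and 10 genes lie outside the axes.

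Of the 15 largest positive interactions among genes measured in all 4 groups, 6 were genes that differed between genotypes in LPS only, 6 differed in both conditions in opposite directions, 2 in both in the same direction and 1 in vehicle only. Spsb1 (chr4:149896283-149955043, minus strand, GRCm38) was of the LPS-only class. Its product is a substrate adaptor of a ubiquitin ligase that acts on inducible nitric oxide synthase. Its level was 1.13, 0.570 and 0.543 CPM in control vehicle, 6.55, 4.96 and 6.14 in control LPS, 0.558, 0.772 and 0.607 in Dicer KO vehicle and 52.5, 45.6 and 48.6 in Dicer KO LPS. The genotypes overlapped in vehicle and did not overlap in LPS, with an interaction of 3.28 ± 0.35 (SE; adjusted p = 1.45e-06). Il1a, the gene of the cytokine interleukin-1 alpha, was at 1.13, 0.937 and 0.877 CPM in control vehicle, 85.6, 84.1 and 70.5 in control LPS, 0.838, 0.463 and 0.373 in Dicer KO vehicle and 324, 425 and 414 in Dicer KO LPS, and its interaction was 3.08 ± 0.44 (adjusted p = 1.42e-04). In vehicle the genotype difference did not pass the test (adjusted p = 0.144), and every Dicer KO LPS library was above every control LPS library. Arg2, the mitochondrial arginase, Flrt3 and Plpp3, a lipid phosphate phosphatase, belonged to the same class, with interactions of 2.78 ± 0.29, 2.54 ± 0.32 and 2.35 ± 0.20. For Arg2, exons on the opposite strand overlap 28.1% of its exon length, and whether counting used strand is not given in the sources used here.

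Sgk1, a kinase of the AGC family, turned from a fall to a rise. It was at 49.5, 46.3 and 45.9 CPM in control vehicle, 26.1, 23.2 and 22.4 in control LPS, 36.3, 30.5 and 34.2 in Dicer KO vehicle and 105, 127 and 125 in Dicer KO LPS. No 2 groups overlapped, and LPS changed Sgk1 by -0.98 in control and 1.82 in Dicer KO on the log2 scale, an interaction of 2.80 ± 0.12 (adjusted p = 6.09e-11). Kmo, an enzyme of tryptophan breakdown, Arhgap22 and Pdgfa, a growth factor of the PDGF family, also fell in control and rose in Dicer KO, with interactions of 3.25 ± 0.36, 2.24 ± 0.16 and 2.18 ± 0.22. Exons on the opposite strand overlap 36.9% of Arhgap22 and 26.1% of Pdgfa. Htr2b, a serotonin receptor, was at 12.4, 13.7 and 10.8 CPM in control vehicle, 1.31, 0.848 and 1.24 in control LPS, 4.42, 3.86 and 5.27 in Dicer KO vehicle and 2.33, 4.06 and 4.67 in Dicer KO LPS. It fell in control and did not pass the test in Dicer KO, so that the higher genotype in vehicle was the lower in LPS (interaction 3.14 ± 0.32, adjusted p = 1.09e-06).

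Slc40a1 and Il7r showed a weaker fall in Dicer KO. Slc40a1 encodes ferroportin, the iron exporter of macrophages, and was at 131, 127 and 109 CPM in control vehicle, 1.31, 1.70 and 1.30 in control LPS, 456, 474 and 419 in Dicer KO vehicle and 28.0, 25.8 and 28.5 in Dicer KO LPS. Dicer KO stood above control in both conditions, by 1.88 in vehicle and 4.25 in LPS on the log2 scale, and the interaction was 2.37 ± 0.17 (adjusted p = 1.46e-08). As a difference in CPM the order is the reverse, since the level fell by 422 CPM in Dicer KO and fell by 121 CPM in control. Il7r, a subunit of the interleukin-7 receptor, was at 256, 265 and 254 CPM in control vehicle, 20.8, 18.6 and 17.9 in control LPS, 197, 184 and 189 in Dicer KO vehicle and 60.1, 72.2 and 68.9 in Dicer KO LPS, with an interaction of 2.26 ± 0.09 (adjusted p = 6.09e-11).

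**Figure D2:**
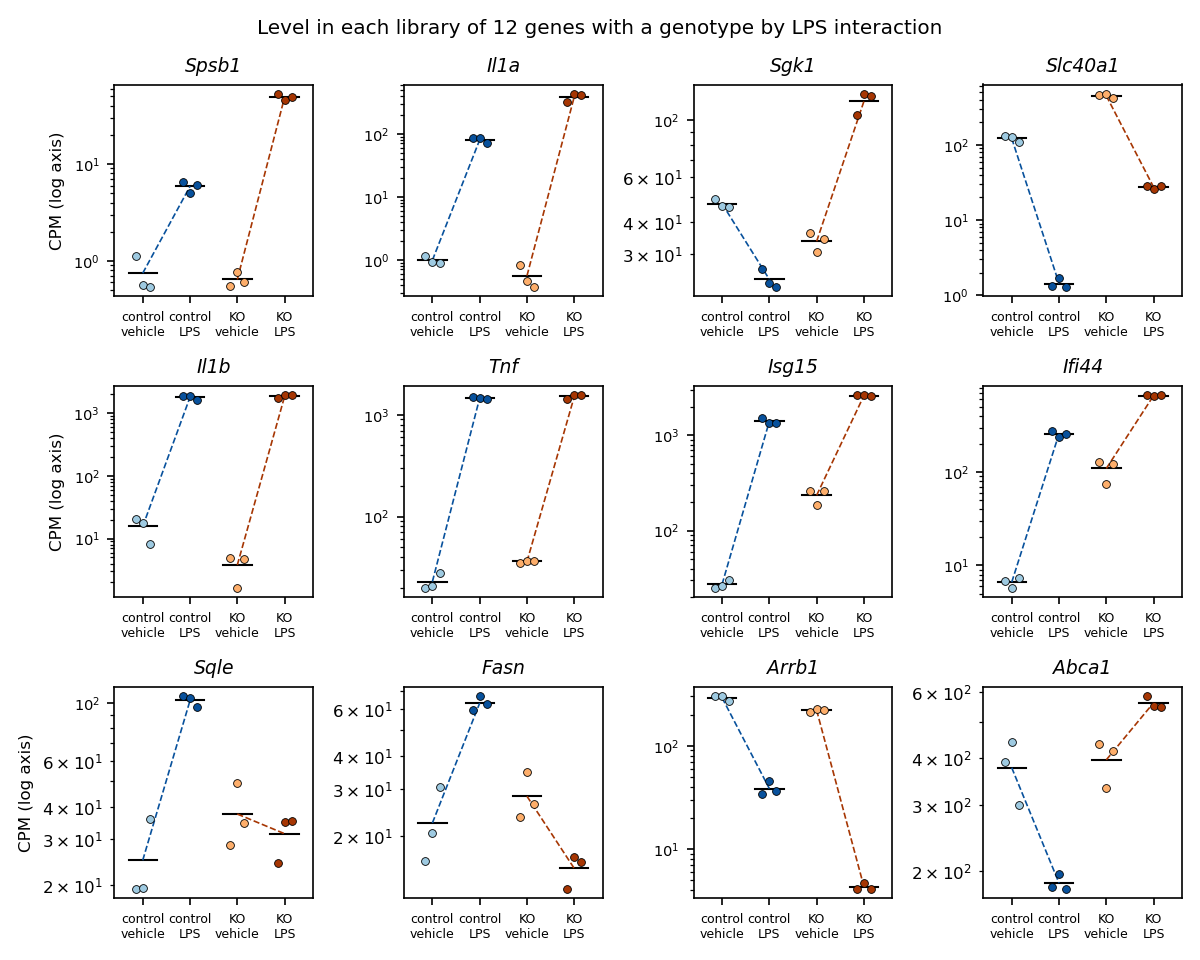
CPM on a log axis for 12 genes, with a point for each of the 3 libraries of a group, a bar at the group mean and a dashed line from vehicle to LPS in each genotype (KO is Dicer KO). Il1b and Tnf differ in vehicle and overlap in LPS, while Spsb1, Sqle, Fasn and Abca1 overlap in vehicle and end apart.

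Other genes differed between genotypes in vehicle and not detectably in LPS. Il1b, the gene of interleukin-1 beta, was at 20.7, 18 and 8.23 CPM in control vehicle, 1879, 1895 and 1655 in control LPS, 4.98, 1.65 and 4.76 in Dicer KO vehicle and 1724, 1945 and 1924 in Dicer KO LPS. Every Dicer KO vehicle library was below every control one and the LPS groups overlapped, with genotype differences of -2.03 and 0.04 on the log2 scale, and an interaction of 2.07 ± 0.49 (adjusted p = 0.0112). Both libraries that stand apart were the lowest of their vehicle groups for Il1b. Over the alternatives run, its interaction was 1.73 to 2.37 and the call was kept. Tnf, the gene of tumour necrosis factor, went the other way, at 20.0, 20.8 and 28.0 CPM in control vehicle, 1497, 1476 and 1413 in control LPS, 35.0, 36.7 and 36.7 in Dicer KO vehicle and 1422, 1556 and 1559 in Dicer KO LPS. Its resting level was higher in every Dicer KO library and its LPS levels overlapped, with an interaction of -0.61 ± 0.13 (adjusted p = 0.0013). The chemokine gene Ccl5 and the immediate early gene Ier3, both picked after their values were seen, were placed in this class too, with interactions of -1.26 ± 0.22 and 1.26 ± 0.22.

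Among the genes that the naming rule takes from this resting-level class, Fgl2, which encodes a secreted fibrinogen-like protein, was at 42.5, 41.2 and 31.3 CPM in control vehicle, 924, 729 and 988 in control LPS, 149.9, 67.6 and 137 in Dicer KO vehicle and 701, 543 and 559 in Dicer KO LPS, an interaction of -2.17 ± 0.40 (adjusted p = 0.00315). Its LPS groups did not overlap either, with Dicer KO the lower, although that difference did not pass the test. Both libraries that stand apart were the lowest of their vehicle groups for Fgl2 as well. Over the alternatives run, its interaction was -2.46 to -1.97 and the call was kept. Lrrc14b was at 10.4, 12.7 and 13.0 CPM in control vehicle, 2.16, 2.06 and 2.05 in control LPS, 61.6, 63.1 and 63.7 in Dicer KO vehicle and 2.71, 1.73 and 2.49 in Dicer KO LPS, but exons on the opposite strand overlap 100.0% of its exon length, so its reads cannot be told from those of the overlapping gene. Thbs1, the gene of the matrix protein thrombospondin-1, was at 624, 598 and 149 CPM in control vehicle, 81.0, 79.0 and 78.1 in control LPS, 140.3, 29.0 and 107 in Dicer KO vehicle and 149, 136 and 125 in Dicer KO LPS. Its LPS groups did not overlap, with Dicer KO the higher, but the difference did not pass the test. Both libraries that stand apart were the lowest of their vehicle groups, the interaction was 3.09 ± 0.89 (adjusted p = 0.0282), and the call was lost when any of 9 single libraries was left out (all but these 2 and Dicer KO vehicle replicate 1), at values of 2.80 to 3.21. Without both libraries that stand apart it was 3.09 (adjusted p = 6.82e-09).

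On the lower side, the strongest interactions included deeper falls in Dicer KO. Arrb1, which encodes beta-arrestin 1, an adaptor that shuts off and redirects G protein-coupled receptors, was at 302, 300.4 and 272 CPM in control vehicle, 33.9, 45.4 and 36.1 in control LPS, 214, 225 and 220.4 in Dicer KO vehicle and 4.13, 4.66 and 4.14 in Dicer KO LPS. No group overlapped another, LPS changed Arrb1 by -2.92 in control and -5.67 in Dicer KO on the log2 scale, and the interaction was -2.75 ± 0.15 (adjusted p = 1.46e-09). Zfp395, a zinc finger gene, was at 64.7, 68.8 and 59.4 CPM in control vehicle, 5.57, 7.20 and 6.64 in control LPS, 50, 46.9 and 49.9 in Dicer KO vehicle and 0.902, 0.751 and 1.21 in Dicer KO LPS, with an interaction of -2.37 ± 0.21 (adjusted p = 1.80e-07). The other leading genes of this side were mostly interferon-stimulated genes (Ifi44, Ifi205, Slfn1, Isg15 and Zbp1) and genes of sterol and fatty acid synthesis (among them Scd2, Fasn, Sqle, Fdps and Hsd17b7). Lrrc14b and Fgl2, described above, were the rest.

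Interferon-stimulated genes (ISGs) differed almost as a whole. All 50 measured members of the ISG list had a higher level in Dicer KO in vehicle, all 50 had a higher level in Dicer KO in LPS, and all 50 rose with LPS in both genotypes. For 47 of them the response ratio was lower in Dicer KO and for none higher, beside 18.8% and 14.9% of all tested genes, and the median interaction of the 50 was -1.03 beside -0.04 over all genes. The genotype gap had a median of 2.02 in vehicle and 0.85 in LPS on the log2 scale, so it narrowed and did not close. The median LPS response was 3.02 in control and 1.92 in Dicer KO. In vehicle, the ISG level of Dicer KO stood at a median of 42.8% of the LPS level of control, and that of control at 12.3%.

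Isg15 (chr4:156199424-156200818, minus strand, GRCm38), which encodes a ubiquitin-like modifier, was at 25.2, 26.2 and 30.5 CPM in control vehicle, 1513, 1338 and 1357 in control LPS, 262, 184 and 258 in Dicer KO vehicle and 2637, 2616 and 2579 in Dicer KO LPS. No group overlapped another, and its interaction was -2.21 ± 0.16 (adjusted p = 3.05e-07). Ifi44 was at 6.80, 5.78 and 7.31 CPM in control vehicle, 275, 238 and 259 in control LPS, 129, 75.5 and 124 in Dicer KO vehicle and 663, 652 and 667 in Dicer KO LPS, an interaction of -2.68 ± 0.27 (adjusted p = 4.19e-05). Rsad2, the antiviral enzyme viperin, was among the most abundant, at 100.2, 104 and 120.4 CPM in control vehicle, 3116, 2356 and 2776 in control LPS, 2352, 1511 and 2188 in Dicer KO vehicle and 24678, 26115 and 26589 in Dicer KO LPS. Its gap between genotypes was 4.22 in vehicle and 3.23 in LPS on the log2 scale, and its interaction was -0.99 ± 0.21 (adjusted p = 0.00337). The 3 members that did not pass were Oas2 (interaction -0.30 ± 0.15), Trim21 (-0.17 ± 0.12) and Irf9 (0.13 ± 0.07), the last of which encodes the DNA-binding partner of STAT2.

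The direction of the ISG difference depends on how a response is expressed. Although the ratio was lower in Dicer KO, the level gained with LPS was larger in Dicer KO for 46 of the 47 called members, with a median gain of 985 CPM in Dicer KO and 584 CPM in control. Isg15 gained 1375 CPM in control and 2376 in Dicer KO, and Rsad2 gained 2641 and 23777. Across all 4669 genes with an interaction, 402 (8.61%) had the opposite sign as a difference in CPM, of which 209 rose in both genotypes with the larger ratio in control. The mean of log2(CPM + 1) over the 50 ISGs lay between 5.77 and 5.93 for control and between 7.64 and 8.14 for Dicer KO in vehicle, and between 9.21 and 9.35 for control and between 10.32 and 10.33 for Dicer KO in LPS. Dicer KO vehicle replicate 2 was the lowest of its group, and 49 of the 50 were called lower without it and control vehicle replicate 3.

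**Figure D3:**
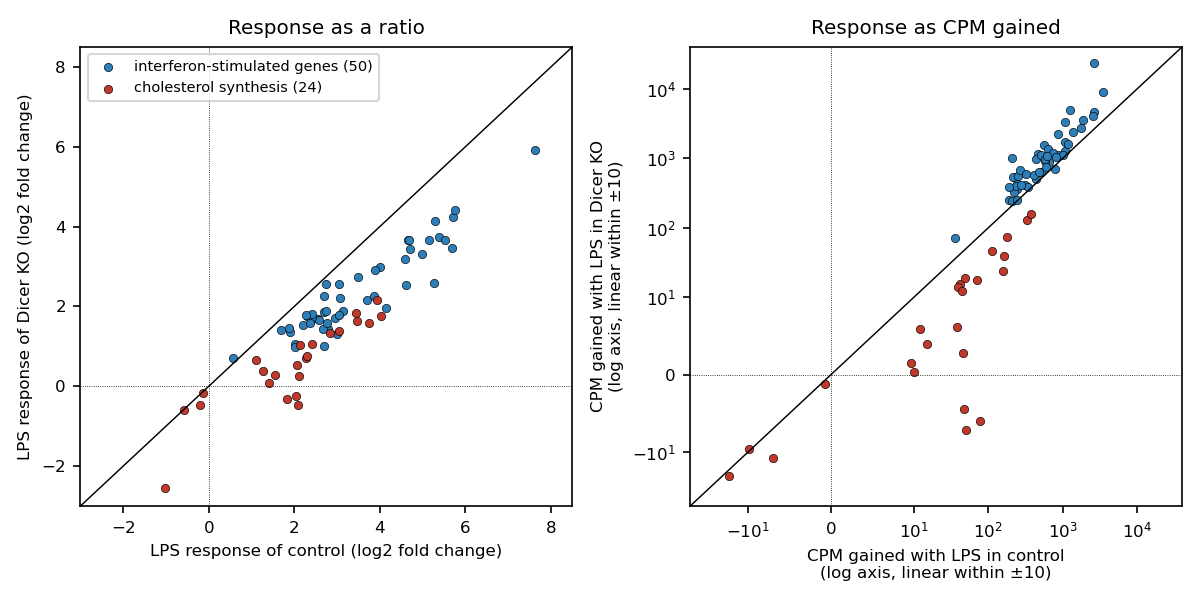
LPS response of control (x axis) against that of Dicer KO (y axis) for 50 interferon-stimulated and 24 cholesterol synthesis genes, as log2 fold changes at left and as CPM gained at right, where axes are logarithmic beyond 10 CPM. Interferon-stimulated genes lie mostly below the diagonal as ratios and mostly above it as CPM gained, while cholesterol genes lie mostly below it on both scales.

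Of 8 measured genes for interferons, their receptors and receptor kinases, 1 was called higher and 2 lower. Ifnb1, the gene of interferon beta, was at 0, 0 and 0 in control vehicle, 0.524, 0.424 and 0.310 CPM in control LPS, 0.512, 0.154 and 0.233 in Dicer KO vehicle and 2.03, 2.25 and 1.73 in Dicer KO LPS. With no count in control vehicle, control LPS was at least 10.2-fold higher, taking 3 counts over the group as the floor, and against that floor the interaction was -0.61. The Ifnb1 call (adjusted p = 0.0443) was lost with DESeq2 (adjusted p = 0.0746) and without any of 9 single libraries, among them Dicer KO vehicle replicate 1 (adjusted p = 0.0788). Ifnar1, a subunit of the type I receptor, was the other lower gene (-0.45 ± 0.07). Jak1, a kinase bound to that receptor, was called higher (0.21 ± 0.07), but scaling by total counts turned it to -0.01.

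Promoter windows of the ISGs were searched for the core of the interferon-stimulated response element (ISRE), the site of the complex with STAT2 and IRF9 and of IRF factors. The search was for GAAA, any 2 bases and GAAA on either strand (TTTC, 2 bases and TTTC on the other), in the 300 bases from 250 before to 50 after each RefSeq start (GRCm38.p6). These 60-base windows, 5′ to 3′ on the strand of the gene, show the first match in capitals, for 5 ISGs with a called interaction and for Trim21, which was not called.
Isg15: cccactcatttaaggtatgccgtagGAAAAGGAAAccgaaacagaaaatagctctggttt
Rsad2: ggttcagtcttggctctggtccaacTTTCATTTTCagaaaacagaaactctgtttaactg
Ifit3: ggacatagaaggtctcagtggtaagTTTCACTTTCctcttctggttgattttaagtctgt
Oas3: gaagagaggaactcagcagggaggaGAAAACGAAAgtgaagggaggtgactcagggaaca
Stat2: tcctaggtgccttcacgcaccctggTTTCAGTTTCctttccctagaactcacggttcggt
Trim21: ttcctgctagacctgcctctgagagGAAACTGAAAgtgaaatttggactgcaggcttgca
The core was found in 24 of the 49 windows of the 39 listed ISGs that matched the table (49.0%), and in 3.43% of the 12700 windows of 9980 tested genes. Among genes with a lower response in Dicer KO, the share was 10.6% where the genotypes differed in the same direction in vehicle and LPS, 2.14% where they differed in vehicle only and 1.47% where they differed in LPS only. It was 3.38% for genes with a higher response. The windows shown lie at chr4:156200862-156200921 (minus strand) for Isg15, chr12:26456538-26456597 (minus strand) for Rsad2, chr19:34583348-34583407 (plus strand) for Ifit3, chr5:120777700-120777759 (minus strand) for Oas3, chr10:128270251-128270310 (plus strand) for Stat2 and chr7:102565435-102565494 (minus strand) for Trim21. A consensus NF-kappaB site, searched the same way, was in 38.7% of the 31 windows of primary LPS response genes and 10.4% of all windows. By direction of the interaction its shares were near that of all windows, at 10.7% for genes with a higher response in Dicer KO and 11.4% for a lower one.

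Cholesterol synthesis was arranged differently, with the genotypes closer at rest and apart after LPS, when Dicer KO was the lower. Of 24 measured members, 21 had a lower response in Dicer KO and none a higher one, with a median interaction of -1.53. In control the median LPS response was 2.10 and 20 of 24 rose, whereas in Dicer KO it was 0.60 and 13 rose. In vehicle 5 were higher and 1 lower in Dicer KO, and in LPS none was higher and 21 were lower. Of the 21 called members, 15 differed between genotypes in LPS only, 5 in both in opposite directions, and Cyp51 passed in neither. The 3 members without a call were Tm7sf2, Fdft1, the squalene synthase gene, and Ebp.

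Sqle (chr15:59315077-59331192, plus strand, GRCm38), the squalene epoxidase gene, was at 19.4, 19.5 and 35.9 CPM in control vehicle, 106, 104 and 96.3 in control LPS, 28.6, 49.2 and 34.6 in Dicer KO vehicle and 24.3, 34.8 and 35.3 in Dicer KO LPS. Control LPS stood above every other group, the vehicle groups overlapped, and the interaction was -2.28 ± 0.40 (adjusted p = 0.00239). Hmgcs1, a synthase that acts early in the pathway, was at 38.5, 41.4 and 59.2 CPM in control vehicle, 402, 374 and 368 in control LPS, 66.7, 101 and 76.8 in Dicer KO vehicle and 179, 226 and 232 in Dicer KO LPS. It rose in both genotypes, Dicer KO was above control in vehicle and below it in LPS with no overlap, and the interaction was -1.65 ± 0.27 (adjusted p = 0.00127). Srebf2, the factor that switches the pathway on, was at 67.2, 72.7 and 103 CPM in control vehicle, 233, 240.0 and 237 in control LPS, 89.7, 135 and 106 in Dicer KO vehicle and 121, 135 and 147 in Dicer KO LPS, with an interaction of -1.26 ± 0.25 (adjusted p = 0.00386). Each of these 3 genes was highest of its vehicle group in the 2 libraries that stand apart, and without both the count was again 21, with a median of -1.63.

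Fatty acid synthesis and sterol efflux, which LXR controls together, split. Fasn, fatty acid synthase, was at 16, 20.5 and 30.5 CPM in control vehicle, 59.5, 67.0 and 62.7 in control LPS, 23.4, 34.7 and 26.2 in Dicer KO vehicle and 12.6, 16.6 and 15.9 in Dicer KO LPS. It rose in control and fell in Dicer KO, and the interaction was -2.40 ± 0.33 (adjusted p = 4.59e-04). Scd2, a stearoyl-CoA desaturase, was at 162, 155 and 100.1 CPM in control vehicle, 113, 118 and 108 in control LPS, 89.9, 82.0 and 94.6 in Dicer KO vehicle and 12.3, 13.1 and 13.4 in Dicer KO LPS, so that Dicer KO LPS was far below the other groups (interaction -2.48 ± 0.25, adjusted p = 3.86e-05). Acaca, the acetyl-CoA carboxylase, and Srebf1, a driver of fatty acid synthesis, were lower as well (-1.21 ± 0.15 and -0.84 ± 0.10). Abca1, the exporter of cholesterol to ApoA-I, moved the other way, at 390.2, 439.6 and 299.5 CPM in control vehicle, 181, 196 and 179 in control LPS, 436, 333 and 417 in Dicer KO vehicle and 584, 551 and 548 in Dicer KO LPS. It fell in control and rose in Dicer KO, with an interaction of 1.53 ± 0.18 (adjusted p = 7.07e-05), and Abcg1, another cholesterol exporter, fell less in Dicer KO (1.02 ± 0.08). In all, 4 of 19 measured members of the LXR and efflux list were called higher and 7 lower, the latter 11 with total-count scaling.

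**Figure D4:**
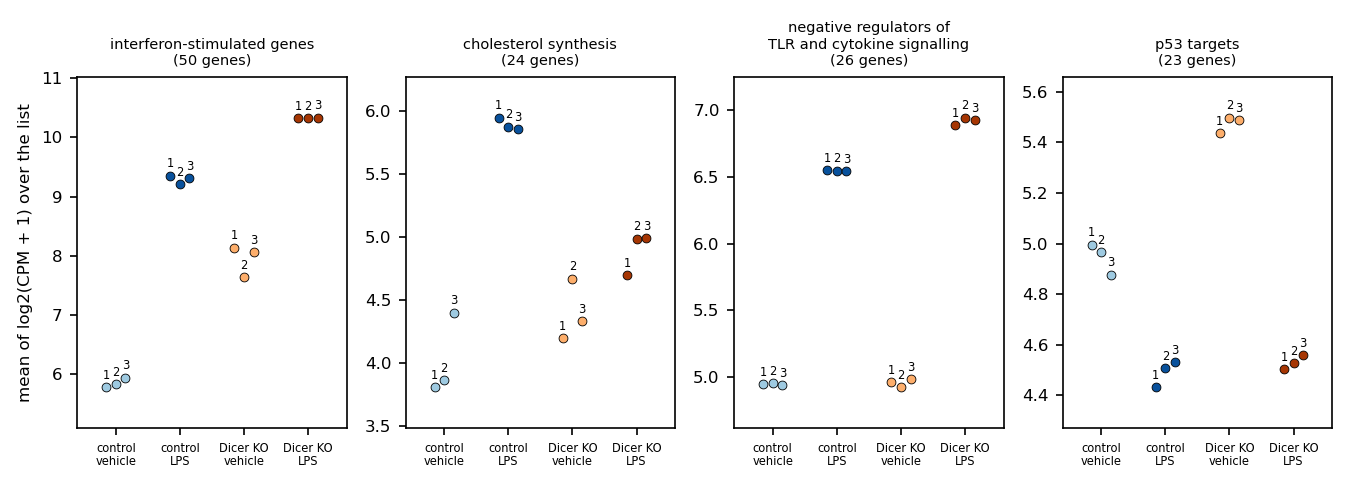
Mean of log2(CPM + 1) over 4 gene lists, with a point for each library, numbered by replicate, in the 4 groups. By this mean, interferon-stimulated genes differ between genotypes before and after LPS, and cholesterol genes and negative regulators mainly after LPS. The mean of the p53 targets differs mainly before LPS, although single members differ in both directions after it. Single negative regulators differ in both directions before LPS, which their mean does not show.

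Primary LPS response genes, which are induced by NF-kappaB and AP-1 without new protein synthesis, leaned to a higher response in Dicer KO. Of 32 measured, 15 were higher and 3 lower, with a median interaction of 0.47. Cd83, a surface protein of activated antigen-presenting cells, was at 60.7, 58.5 and 57.1 CPM in control vehicle, 99.7, 82.2 and 89.2 in control LPS, 79.0, 76.5 and 73.8 in Dicer KO vehicle and 278, 268 and 276 in Dicer KO LPS, an interaction of 1.22 ± 0.09 (adjusted p = 1.41e-08). Tnfaip3, Bcl3, Nfkbie and Nfkbiz, all feedback regulators of NF-kappaB, had interactions of 0.97 ± 0.11, 0.99 ± 0.12, 0.62 ± 0.08 and 0.61 ± 0.12, and each was lower in Dicer KO in vehicle and higher in LPS. The 3 lower members were Tnf and the chemokine genes Ccl4 (-1.41 ± 0.21) and Ccl3 (-1.0 ± 0.16), whose resting levels were higher in Dicer KO. As CPM gained, all 3 rose more in Dicer KO, with a median gain of 1587 CPM against 1286 in control. With scaling by total counts the split was 13 higher and 6 lower.

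Secondary response genes, which need new proteins or interferon, went both ways as response ratios. Of 34 measured, 8 were higher, 6 lower and 20 without a call, and the median was -0.03. The share called lower was near the 18.8% of all tested genes, and total-count scaling gave 6 higher and 8 lower. Il1rn, the interleukin-1 receptor antagonist, was at 39.1, 38.0 and 49.9 CPM in control vehicle, 2731, 2285 and 2304 in control LPS, 48.4, 46.5 and 52.2 in Dicer KO vehicle and 6639, 7138 and 7112 in Dicer KO LPS, an interaction of 1.30 ± 0.13 (adjusted p = 1.52e-06). Ptges, a prostaglandin E synthase, Il15 and Il10 were also higher (1.05 ± 0.18, 1.11 ± 0.13 and 0.69 ± 0.20). Marco, a scavenger receptor, was at 7.57, 8.07 and 8.40 CPM in control vehicle, 232, 243 and 235 in control LPS, 4, 4.79 and 4.48 in Dicer KO vehicle and 27.1, 31.5 and 35.1 in Dicer KO LPS and was lower in Dicer KO in both conditions (interaction -2.06 ± 0.14, adjusted p = 7.74e-09). The remaining 5 lower members, Cxcl10, Acod1, Tnfsf10, Ccl5 and Tnfsf15, all had a higher resting level in Dicer KO. By level, 19 of the 34 were higher in Dicer KO in vehicle and 2 lower. In LPS 27 were higher and 2 lower, with a median genotype difference of 0.87 on the log2 scale. As CPM gained with LPS, 32 of the 34 gained more in Dicer KO, among them 5 of the 6 lower members.

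Nos2 and Il6, 2 standard readouts of LPS activation, did not pass. Nos2, the inducible nitric oxide synthase, was at 1.05, 1.34 and 0.669 CPM in control vehicle, 3029, 2864 and 3212 in control LPS, 4.05, 1.34 and 5.51 in Dicer KO vehicle and 5871, 5815 and 6102 in Dicer KO LPS. It was higher in Dicer KO LPS than in control LPS by 0.97 on the log2 scale, but its interaction was -0.87 ± 0.49 (adjusted p = 0.212), and it passed without Dicer KO vehicle replicate 2 at -1.25 (adjusted p = 1.75e-04). Il6 was listed at 0 in 5 of 6 vehicle libraries and was at 31.9, 32.0 and 28.1 CPM in control LPS and 49.4, 55.5 and 59.3 in Dicer KO LPS. With resting levels that low its interaction could not be resolved at this depth (adjusted p = 0.305), while the LPS groups did not overlap.

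Negative regulators of TLR and cytokine signalling were among the lists with the most higher responses, 13 of 26 measured, with 1 lower and a median of 0.23, but scaling by total counts made this 11 higher and 9 lower. In vehicle 7 of the 26 were higher in Dicer KO and 10 lower, and in LPS 19 were higher and 2 lower. Of the called members, 4 differed between genotypes in LPS only, 3 in both conditions in the same direction and 7 in both in opposite directions. Cish, a member of the SOCS family, was at 1.82, 1.55 and 0.961 CPM in control vehicle, 3.80, 4.42 and 3.66 in control LPS, 0.698, 0.257 and 0.560 in Dicer KO vehicle and 12.3, 10.4 and 9.94 in Dicer KO LPS. It was lower in Dicer KO in vehicle and higher in LPS, with an interaction of 2.94 ± 0.36 (adjusted p = 6.63e-06). Dusp1 and Dusp5, phosphatases of MAP kinases, had interactions of 0.89 ± 0.09 and 1.68 ± 0.25 (exons on the opposite strand overlap 22.1% of Dusp5), and Zfp36, which speeds the decay of cytokine transcripts, 0.57 ± 0.09. Socs1, the inhibitor of JAK kinases and an interferon-induced gene, was the lower member, at 0.445, 0.489 and 0.585 CPM in control vehicle, 54.6, 60.6 and 64.5 in control LPS, 4.42, 3.30 and 4.15 in Dicer KO vehicle and 148, 124 and 119 in Dicer KO LPS. Its resting level in Dicer KO was above that of control in every library, and its interaction was -1.84 ± 0.27 (adjusted p = 5.28e-05).

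Components of TLR4 signalling were mixed, with 11 of 31 higher and 6 lower, and 5 higher and 14 lower with total-count scaling. Irf5, a factor that drives inflammatory cytokines, was at 225, 226 and 224 CPM in control vehicle, 218, 198 and 202 in control LPS, 233, 220.3 and 229.8 in Dicer KO vehicle and 396, 412 and 403 in Dicer KO LPS. It fell slightly in control and rose in Dicer KO (interaction 0.95 ± 0.07, adjusted p = 2.65e-08). Ly96, which encodes MD-2, Traf3 and Tab2 were higher (0.67 ± 0.12, 0.63 ± 0.09 and 0.67 ± 0.07), and Mapk14, the p38 kinase, lower (-0.64 ± 0.07). Among AP-1 and ATF factors, 7 of 17 were higher and 3 lower, and 5 each with total-count scaling. In both lists the share called lower was near the 18.8% of all tested genes. Fosl2 was at 77.7, 83.0 and 54.6 CPM in control vehicle, 136, 151 and 135 in control LPS, 32.4, 25.3 and 30.9 in Dicer KO vehicle and 239, 242 and 229 in Dicer KO LPS and crossed from lower to higher in Dicer KO (interaction 2.03 ± 0.20, adjusted p = 2.12e-05), while Jun had -0.96 ± 0.15. The AP-1 count of 7 became 4 without Dicer KO vehicle replicate 3, and the TLR4 count of 11 became 7 without Dicer KO LPS replicate 3.

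Targets of p53, a factor that responds to DNA damage, were mostly higher in Dicer KO at rest and went both ways after LPS. In vehicle 19 of 23 were higher in Dicer KO and 3 lower, with a median of 0.60, and in LPS 9 were higher and 6 lower, with a median of 0.13. The interaction was lower for 14 and higher for 4. Of these, 5 differed between genotypes in vehicle only, 8 in both conditions in the same direction and 5 in both in opposite directions. Summed over the list, vehicle levels were 1358 to 1464 CPM in control and 2018 to 2095 in Dicer KO. In LPS the sums were 1945 to 1997 in control and 2824 to 2872 in Dicer KO, so the summed levels stayed apart. Gdf15, a stress-induced cytokine, was at 7.81, 6.36 and 8.19 CPM in control vehicle, 14, 18.9 and 20.3 in control LPS, 18.6, 29.6 and 21.6 in Dicer KO vehicle and 11.6, 11.6 and 14.5 in Dicer KO LPS. It rose in control and fell in Dicer KO (interaction -2.14 ± 0.27, adjusted p = 8.66e-05). Sesn1 fell in both and further in Dicer KO, at 158, 164 and 169 CPM in control vehicle, 10.5, 12.3 and 10.8 in control LPS, 112, 124 and 115 in Dicer KO vehicle and 2.93, 2.25 and 2.79 in Dicer KO LPS (interaction -1.59 ± 0.14, adjusted p = 1.65e-07). Mdm2, the ubiquitin ligase that degrades p53, was higher, at 143, 146 and 139.6 CPM in control vehicle, 344, 319.8 and 338 in control LPS, 172, 169 and 167 in Dicer KO vehicle and 683, 700.5 and 699.7 in Dicer KO LPS (interaction 0.81 ± 0.07, adjusted p = 1.06e-07), as were Btg2, Plk2 and Fas.

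Lists of stress and hypoxia genes held more lower than higher calls. In the unfolded protein response 13 of 23 were lower and 2 higher (median -0.34), and the chaperones Calr, Hspa5 and Pdia6 had interactions of -0.56 ± 0.11, -0.41 ± 0.08 and -0.54 ± 0.08. The 2 higher members were Ern1 and Ppp1r15a, the latter of which restarts translation after stress (1.05 ± 0.09, adjusted p = 1.07e-07). Of 17 antioxidant genes of NRF2, 8 were lower and 1 higher. Hmox1, heme oxygenase, was at 435, 402 and 399.9 CPM in control vehicle, 905, 1017 and 919.5 in control LPS, 378, 408 and 385 in Dicer KO vehicle and 399.7, 433 and 458 in Dicer KO LPS, rising in control and not passing the test in Dicer KO (interaction -1.06 ± 0.09, adjusted p = 1.16e-07). Bach1, the repressor of Hmox1, was the higher member, at 192, 186 and 168 CPM in control vehicle, 47.6, 43.2 and 44.0 in control LPS, 288, 244 and 274 in Dicer KO vehicle and 238, 211 and 214 in Dicer KO LPS (interaction 1.73 ± 0.10, adjusted p = 2.10e-09). Of 21 hypoxia targets 8 were lower and none higher (median -0.69), with 17 of 21 lower in Dicer KO already in vehicle, and the 8 became 12 without both libraries that stand apart.

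Counts in metabolic and growth families moved with the scaling. Of 40 oxidative phosphorylation genes 5 were higher and 2 lower, and 0 and 20 with total-count scaling. Of 19 glycolysis genes 2 were higher and none lower, and 1 and 8 with that scaling. Of 21 tricarboxylic acid cycle genes 1 was higher and 4 lower (0 and 14), and of 21 fatty acid oxidation genes 2 were higher and 4 lower (2 and 16). The share called lower in the last pair was near the 18.8% of all tested genes and shows nothing particular to them. Of 45 cytosolic ribosomal protein genes 7 were higher, with a median of 0.11 that total-count scaling turned to -0.11, and the 7 became 16 without control vehicle replicate 3 and 2 without control LPS replicate 2. The shares called higher among ribosomal protein and oxidative phosphorylation genes were near the 14.9% of all tested genes. Of 30 replication and mitosis genes 2 were higher and 3 lower, and 0 and 6 with total-count scaling. Lysosomal genes had 16 of 38 higher and 6 lower, but 3 higher and 12 lower with total-count scaling. Tfeb, a master regulator of lysosome genes, was itself lower, at 43.3, 41.6 and 48.3 CPM in control vehicle, 15.1, 17.3 and 17.5 in control LPS, 43.2, 56.2 and 44.4 in Dicer KO vehicle and 7.59, 8.11 and 7.76 in Dicer KO LPS (interaction -1.20 ± 0.15, adjusted p = 1.54e-05).

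Among 10 measured MHC class II genes 2 were higher, a share near the 14.9% of all tested genes, and 1 was with total-count scaling. Ciita, the transactivator that MHC class II genes need, was at 8.94, 11 and 9.78 CPM in control vehicle, 2.03, 1.94 and 2.29 in control LPS, 4.42, 4.38 and 4.48 in Dicer KO vehicle and 8.87, 9.39 and 8.74 in Dicer KO LPS, an interaction of 3.27 ± 0.18 (adjusted p = 9.24e-10). LPS lowered it in control and raised it in Dicer KO, and the genotypes swapped order. The other higher member was H2-Aa (0.29 ± 0.10, adjusted p = 0.0355), whose call was lost with total-count scaling and when any of 8 single libraries was left out. Of 12 macrophage markers 5 were higher and 2 lower, beside 14.9% and 18.8% of all tested genes, and 2 and 4 with total-count scaling. The share called lower was near that of all tested genes. Mertk, a receptor for the uptake of dead cells, was at 82.3, 84.9 and 77.8 CPM in control vehicle, 57.6, 46.2 and 54.6 in control LPS, 88.8, 76.8 and 81.8 in Dicer KO vehicle and 132, 119 and 117 in Dicer KO LPS and fell in control and rose in Dicer KO (interaction 1.20 ± 0.11, adjusted p = 2.51e-07). The 2 lower markers, Fcgr1 and Siglec1, had higher resting levels in Dicer KO. The higher ones also held Lyz2, at 6041, 5729.6 and 5370.5 CPM in control vehicle, 4281, 3891 and 4008 in control LPS, 15.6, 12.7 and 14 in Dicer KO vehicle and 16.2, 20.6 and 19.9 in Dicer KO LPS, whose ratio in Dicer KO rests on a level far below control.

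**Figure D5:**
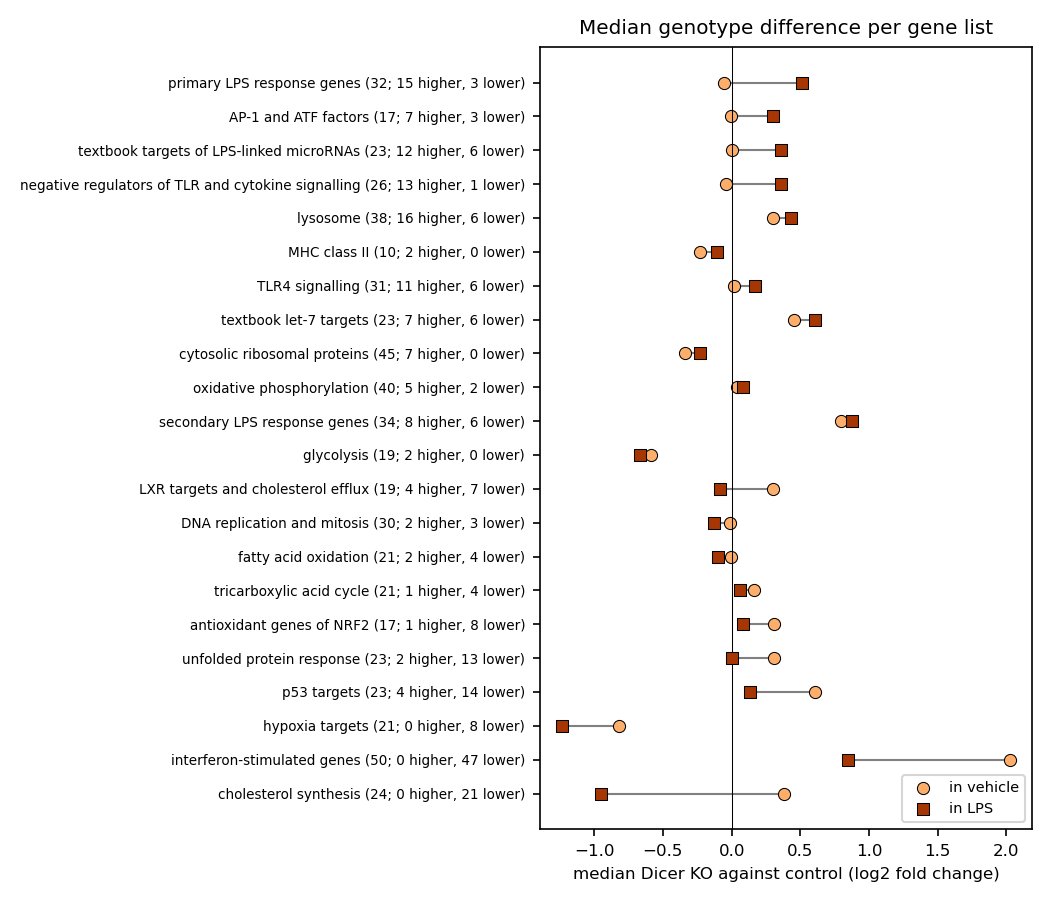
Median log2 fold change of Dicer KO over control in vehicle (circles) and in LPS (squares) for lists with at least 10 measured genes, apart from cell type markers, with the numbers measured and called higher or lower in the interaction. The interferon and p53 lists move towards 0 from vehicle to LPS, and the cholesterol list crosses from above to below 0.

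Textbook targets of microRNAs that LPS induces or that curb its response were counted because such microRNAs cannot mature without Dicer. Of 23 measured, 12 were higher and 6 lower, with a median of 0.24, and 8 higher and 10 lower with total-count scaling. The mature strand of miR-155, the best known of them, and its sites in Bach1 and Jarid2 are shown, with the seed (bases 2 to 8) and its match in capitals. The microRNA is from RefSeq (GRCm38.p6) and the sites are from the 3′ UTRs of GENCODE M21 transcripts.
miR-155-5p: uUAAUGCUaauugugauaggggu
Bach1 site 1: ctctatgaacagtttAGCATTAa
Bach1 site 2: agaaatatattgcatAGCATTAt
Jarid2 site 1: aactgattttgttttAGCATTAa
Jarid2 site 2: tgtgtccctcacatcAGCATTAa
Bach1, whose levels are given above, fell in both genotypes and much less in Dicer KO. Jarid2, a cofactor of Polycomb repression, was at 41.3, 41.4 and 35.1 CPM in control vehicle, 128, 133 and 133 in control LPS, 41.0, 35.2 and 40.8 in Dicer KO vehicle and 222, 199 and 195 in Dicer KO LPS, with the genotypes overlapping in vehicle and apart in LPS (interaction 0.65 ± 0.10, adjusted p = 8.44e-05). Tab2 showed the same arrangement, at 156, 154 and 149 CPM in control vehicle, 319, 308 and 315 in control LPS, 162, 146 and 153 in Dicer KO vehicle and 511, 498 and 494 in Dicer KO LPS (interaction 0.67 ± 0.07, adjusted p = 1.50e-06). Of the 6 lower members, Spry1, an inhibitor of growth factor signalling, had the largest interaction (-4.61 ± 1.10, adjusted p = 0.00329). It was at 0, 0.122 and 0.125 CPM in control vehicle, 1.57, 1.82 and 1.74 in control LPS, 0.233, 0.103 and 0.0467 in Dicer KO vehicle and 0, 0.150 and 0.151 in Dicer KO LPS, so that only control LPS stood above the rest. These are few counts, and exons on the opposite strand overlap 24.4% of Spry1. Other lower members were Socs1, Irak1 (-0.48 ± 0.07), Traf6 (-0.24 ± 0.09) and Il6ra (-0.22 ± 0.07). Mir155hg, the host transcript of miR-155, was at 70.7, 74.9 and 74.9 CPM in control LPS and 80.1, 76.1 and 74.4 in Dicer KO LPS, groups whose ranges overlapped, and its interaction did not pass (adjusted p = 0.051).

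A match to the miR-155 seed (7 bases) was present in the 3′ UTR of 1074 of 11737 tested genes. A higher response in Dicer KO was called for 22.3% of these and for 15.9% of the rest, and a lower response for 20.5% and 20.2%. Genes with a match had a median 3′ UTR of 2718 bases against 1046 for the others, so the groups differ in length as well. Per kilobase of 3′ UTR, matches were 1.20 times as dense in genes called higher as in all genes for miR-155 and 1.14 times for miR-17-5p, and between 0.956 and 1.06 times for the other 8 microRNAs searched. These shares describe letters in transcripts and were chosen after the interaction values were seen. Of 23 let-7 targets 7 were higher and 6 lower, beside 14.9% and 18.8% of all tested genes, and 6 and 9 with total-count scaling. In vehicle 15 of these targets were higher in Dicer KO and 3 lower, and in LPS 16 were higher and 3 lower. Hmga2, the best known of them, was at 45.1, 46.4 and 61.1 CPM in control vehicle, 8.84, 8.05 and 8 in control LPS, 117, 161 and 136 in Dicer KO vehicle and 50.3, 54.4 and 59.8 in Dicer KO LPS (interaction 1.28 ± 0.23, adjusted p = 0.00123), and Ccnd2 was the lowest (-1.81 ± 0.21), with a resting level above control.

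The 99 genes that passed the interaction but neither genotype comparison had differences of opposite sign in vehicle and LPS. The median size of the genotype difference was 0.22 in vehicle and 0.25 in LPS on the log2 scale, and 20 of the 99 interactions were at least 2-fold. The 3 largest that the naming rule takes were Cyp51, a cholesterol synthesis gene (-1.51 ± 0.49, adjusted p = 0.0433), Vcan, the gene of the matrix protein versican (0.91 ± 0.31, adjusted p = 0.0478), and Kpna2, a nuclear import gene (-0.90 ± 0.27, adjusted p = 0.0278). Cyp51 was at 13.2, 13.9 and 28.2 CPM in control vehicle, 143, 131 and 120.1 in control LPS, 20.2, 43.8 and 28.1 in Dicer KO vehicle and 58.8, 86.6 and 84.0 in Dicer KO LPS. Each of the 3 calls was lost when any of several single libraries was left out, Dicer KO vehicle replicate 2 among them, at -1.17 for Cyp51, 0.67 for Vcan and -0.78 for Kpna2.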

How the data were processed

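RNA-seq counts per gene were deposited by the authors as 1 table for each of 12 libraries. Per the submitters' processing notes, STAR 2.5 and DESeq2 were used with mouse builds mm10 and GRCm38.p5. How reads were counted, and with which strand setting and annotation, is not given in the sources used here. Of 46078 identifiers, 45229 matched GENCODE M21, and those without a match held 0.141% of counts. Rows for unassigned reads were left out.

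The counts were fitted over all 12 libraries, with a mean for each of the 4 groups, by edgeR 4.0.16 (quasi-likelihood test, trimmed mean scaling, its default filter on low counts, R 4.3.3), and p-values were adjusted over all 13837 tested genes (Benjamini-Hochberg). CPM values use the trimmed mean scaling. The code was tested on simulated data. Sequences were read from RefSeq (GRCm38.p6) and GENCODE M21 with Python 3.11.15 and pandas 2.3.3.

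Named genes were the 15 largest called interactions in each direction (a symbol that is no predicted gene, a highest group mean of at least 10 CPM and every group mean at least 0.5), up to 4 members of each list by adjusted p, the 3 largest of each level class, and a set always given (Dicer1, Lyz2, Apoe, Tnf, Il6, Il1b, Nos2, Ifnb1 and Abca1). Other list members, such as Rsad2, Cxcl10, Socs1 and Jarid2, were named after their values were seen. Some genes that the rule takes are not reported here. The members and lists were chosen with earlier results of these data known. Alternatives were DESeq2 1.42.0, limma 3.58.1 (voom), other scalings and filters, replicate blocks and leaving out libraries.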

Additional observations from a re-analysis of the deposited data

Results flagged for a closer look

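The LPS response differed between the genotypes by the interaction test itself for 2067 genes with a higher and 2602 with a lower response in Dicer KO. Among these, 144 rose with LPS in control and fell in Dicer KO, and 107 fell in control and rose in Dicer KO.

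Of the genes with the largest positive interactions, Ccdc63 (2.60 on the log2 scale) is not described above, and it was at 0.607, 1.06 and 0.794 CPM in control vehicle, 2.95, 3.15 and 3.35 in control LPS, 0.605, 0.412 and 0.607 in Dicer KO vehicle and 13.7, 12 and 12.7 in Dicer KO LPS. The others were Spsb1 (3.28), Kmo (3.25), Htr2b (3.14), Thbs1 (3.09), Il1a (3.08), Cish (2.94), Sgk1 (2.80), Arg2 (2.78), Flrt3 (2.54), Slc40a1 (2.37), Plpp3 (2.35), Il7r (2.26), Arhgap22 (2.24) and Pdgfa (2.18).

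Of the largest negative interactions, those of interferon-stimulated genes were Ifi44 (-2.68), Ifi205 (-2.52), Slfn1 (-2.37), Isg15 (-2.21) and Zbp1 (-2.20). Genes of lipid synthesis were Scd2 (-2.48), Fasn (-2.40), Sqle (-2.28), Fdps (-2.26) and Hsd17b7 (-2.14), and the rest were Arrb1 (-2.75), Zfp395 (-2.37), Lrrc14b (-2.24) and Fgl2 (-2.17). All of these passed the interaction test at an adjusted p under 0.05. Ifi205 and Slfn1 belong to families of closely related genes, so their counts may hold reads of relatives.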

How the results depend on the processing

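No gene called in both the reported fit and an alternative changed direction, in any of the alternatives run. Scaling by total counts moved counts and directions: 997 genes were higher and 5136 lower (16.3% higher, against 44.3%), 1958 differed in both conditions in the same direction, 13 hypoxia targets were lower and 3 lysosome genes higher. It also turned the medians of TLR4 signalling (-0.092), ribosomal proteins (-0.11), let-7 targets (-0.11), lysosome (-0.028), MHC class II (-0.034) and macrophage markers (-0.054) and the interaction of Jak1 (-0.015). The scaling shifts every gene by its construction, and which scaling is nearer the truth was not tested. DESeq2 gave 2292 higher and 2059 lower and kept 87.1% of the calls, its size factors in edgeR gave 2434 and 2220, voom 2059 and 2510, no filter 2204 and 2420, and a mean of at least 5 CPM 1962 and 2358. Asking for at least 2-fold left 362 and 577. Leaving out each library gave 1744 to 2206 higher and 2277 to 2815 lower, and 363 to 712 genes that differed in both conditions in opposite directions. Leaving out both libraries that stand apart gave 2227 and 2862. With the replicate number as a block within genotype, 2009 were higher and 2557 lower, and with a block common to the 4 groups 2051 and 2585. The calls of Thbs1, Cyp51 and Vcan were lost with either block, and those of Ifnb1 and Jak1 with the block within genotype. Same-numbered vehicle and LPS libraries deviated together little (r = -0.05, 0.06 and -0.03 in control, 0.11, 0.06 and -0.03 in Dicer KO), and not every library correlated best with its own number, so the numbers were not taken to pair samples. Level classes were not run with the block within genotype. Over 144 named genes and all alternatives, 2788 results kept direction and side of the threshold, 191 lost the call, 28 gained it and 1 turned. Depth limits genes such as Il6 and Ifnb1, whose vehicle levels are at or near 0.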
